A study of Mus musculus with 123 samples.

Results

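The genes for the cardiac natriuretic peptides, Nppa and Nppb, and for the 3 natriuretic peptide receptors, Npr1, Npr2 and Npr3, were followed in single cells of the developing mouse heart. The 5 genes were taken by symbol from a table of read counts for 23337 gene symbols, and all 5 were in the table. The cells came from αMHC-GFP mice, in which the promoter of the α myosin heavy chain gene drives green fluorescent protein in cardiomyocytes (CMs). GFP+ cells were sorted from hearts at embryonic day 9.5 (E9.5), E12.5 and postnatal day 1 (P1) and captured on Fluidigm C1 chips, and their RNA was amplified with the SMART-Seq V4 kit. The labels give no other allele and no treatment for any group. Hearts were digested with collagenase at E9.5 and E12.5 and with a Liberase mixture at P1, so that age and digestion cannot be told apart. Of 123 cells, the 112 with 2000 or more detected genes were used. They numbered 42 at E9.5 and 29 at E12.5, and 41 of the 52 P1 cells passed.

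The labels name no animal, litter or chip, so each time point is 1 sample of cells, and no test across cells was made. The cell titles fall into naming sets by their prefix. At E9.5 set C held 14 cells and set N530 held 28, at E12.5 set C held 20 cells, set N523 held 8 and set E12-5b held 1, and every P1 cell was in set C. At E9.5 the median cell of set C had 415428 counts and that of set N530 had 3151950. At E12.5 these medians were 389394 for set C and 4895290 for set N523. The median P1 cell had 149078 counts, and single cells ran from 69522 to 7711355 counts. The sets therefore differed in depth, and their values are given apart. CM genes (Actc1, Tnnt2, Tnni1, Tnni3, Tnnc1, Myh6, Myh7, Ttn, Actn2 and Ryr2) summed to less than 1000 counts per 1000000 (CPM) in 4 cells, E9.5 cells 3, 5 and 8 and P1 cell 25. These cells are kept below.

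Nppa encodes atrial natriuretic peptide and Nppb encodes B-type natriuretic peptide, hormones that the heart releases when its wall is stretched and that promote salt excretion and relax vessels. Nppa is made in the atria and the trabecular layer of the embryonic ventricles, and ventricular levels are known to decline around birth. Npr1 and Npr2 encode guanylyl cyclase receptors that raise cyclic GMP in the receiving cell. Npr1 binds the products of Nppa and Nppb, and Npr2 binds the C-type peptide encoded by Nppc. Npr3 encodes a receptor without a cyclase domain that removes the peptides from circulation.

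In build GRCm38 with GENCODE annotation, Nppa lay on the plus strand at chr4:148000722-148002079 and Nppb on the plus strand at chr4:147985788-147987205. Each had 1 annotated transcript of 3 exons, and 13516 bases separated them. An antisense gene, Gm13054, overlaps 599 exonic bases of Nppa and was not analysed here, so reads from the antisense strand cannot be separated from those of Nppa unless strand was used in the counting. Npr1 lay on the minus strand at chr3:90450591-90465866, Npr2 on the plus strand at chr4:43631935-43651244 and Npr3 on the minus strand at chr15:11839896-11907287. The promoter windows of the peptide genes, 300 bases around the RefSeq start, are shown because the peptide genes are neighbours that were often found in the same cells. They are from GRCm38.p6, plus strand, chr4:148000472-148000771 for Nppa and chr4:147985650-147985949 for Nppb, and capitals mark matches to the motifs searched. The RefSeq start of Nppb lies 112 bases inside its GENCODE gene.
Nppa: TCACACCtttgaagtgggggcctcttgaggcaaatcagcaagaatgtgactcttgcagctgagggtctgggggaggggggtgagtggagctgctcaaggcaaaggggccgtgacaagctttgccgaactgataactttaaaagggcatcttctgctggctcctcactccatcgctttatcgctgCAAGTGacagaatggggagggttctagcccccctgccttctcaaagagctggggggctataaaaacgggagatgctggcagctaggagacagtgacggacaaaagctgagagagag
Nppb: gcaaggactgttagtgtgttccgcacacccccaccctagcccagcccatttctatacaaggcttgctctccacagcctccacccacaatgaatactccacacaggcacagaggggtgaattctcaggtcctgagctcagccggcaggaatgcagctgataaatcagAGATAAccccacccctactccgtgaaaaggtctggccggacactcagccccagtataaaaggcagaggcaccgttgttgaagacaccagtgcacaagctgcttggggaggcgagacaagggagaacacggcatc

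The motifs searched on both strands were the GATA site AGATAA, the NK homeobox site CAAGTG, the T-box site TCACACC, and the SRF and MEF2 sites. The Nppa window held 1 NK homeobox site at positions -66 to -61 from the start and 1 T-box site at its first bases. The Nppb window held 1 GATA site at positions -84 to -79. The windows of Npr1, Npr2 and Npr3 held no match to any of the 5 motifs. Of 32851 promoter windows of the same length, 11.2% held the GATA site, 13.6% the NK homeobox site, 3.98% the T-box site, 1.63% the SRF site and 3.19% the MEF2 site. These matches describe letters in a window and are not evidence of binding.

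Nppa was detected in most cells at E9.5, in 33 of 42 (78.6%, exact 95% interval 63.2 to 89.7). It was detected in 16 of the 29 E12.5 cells (55.2%, 35.7 to 73.6) and in 31 of the 41 P1 cells (75.6%, 59.7 to 87.6). After each cell was thinned to 60000 counts, to make the depths equal, the shares were 76.2%, 48.3% and 61.0%. Its range over cells was wide at every age. At E9.5 Nppa ran from 0 to 22267 CPM with a median of 477 CPM. At E12.5 it ran from 0 to 32004 CPM with a median of 35.4 CPM, and at P1 from 0 to 120233 CPM with a median of 23.6 CPM. The median was thus lowest at the age with the highest single cell. In P1 cell 9, Nppa took 12.0% of all counts of the cell.

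Most Nppa transcripts came from few cells. The 5 highest cells of an age gave 78.7% (E9.5), 99.7% (E12.5) and 90.2% (P1) of its Nppa counts, and 1000 CPM or more was reached by 16, 4 and 10 cells. E9.5 cell 39, the highest of its age, alone gave 43% of the counts. Summed over cells, Nppa made up 2561 CPM of the E9.5 counts (exact Poisson 95% interval 2551 to 2571), 8580 CPM of the E12.5 counts (8555 to 8606) and 7727 CPM of the P1 counts (7661 to 7793). These intervals cover counting error only, since the reads carry no molecular identifiers and do not count molecules. Without the highest cell of each age the levels were 1535, 4982 and 5632 CPM. The mean over cells, which weights every cell alike, was 1572, 2236 and 8732 CPM in order of age.

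Naming sets of the same age differed widely in Nppa. At E9.5 it was found in all 28 cells of set N530 (0.58 to 22267 CPM, median 718) and in 5 of 14 cells of set C (0 to 2597 CPM, median 0), and the summed level was 5.75-fold higher in set N530. At E12.5 it was found in all 8 cells of set N523 (32.2 to 32004 CPM, median 1052) and in 8 of 20 cells of set C (0 to 364 CPM, median 0), and the summed level was 10364 CPM in set N523 and 43.8 CPM in set C, a 237-fold difference. Single cells carried much of these sums, and without the highest cell of each set the levels were 1601 (N530) and 283 CPM (C) at E9.5 and 6213 (N523) and 28.8 CPM (C) at E12.5. After thinning, 96.4% and 35.7% of the cells of the E9.5 sets and 87.5% and 35% of those of the E12.5 sets kept Nppa. Depth also moved with Nppa. Over cells its Spearman correlation with the total count was 0.43, 0.57 and 0.08 in order of age. Within sets it was -0.23 (E9.5, C), 0.13 (E9.5, N530), 0.14 (E12.5, C) and 0.45 (E12.5, N523). With the number of genes found it was 0.22, 0.19 and -0.09 in order of age, and within the E12.5 sets 0.50 (C) and -0.81 (N523). What the naming sets stand for is not given in the labels, and the part of depth in the difference between sets was not tested.

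**Figure D1:**
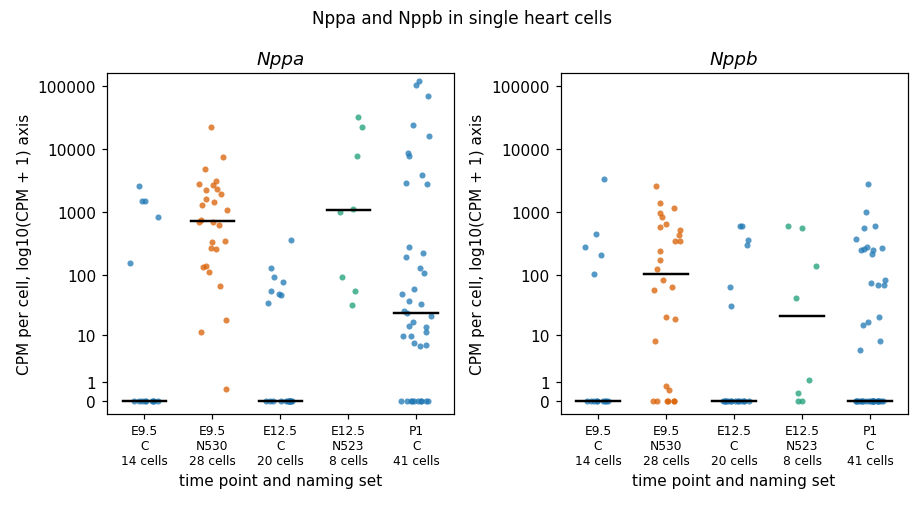
CPM of Nppa (left) and Nppb (right) in each cell on a log10(CPM + 1) axis, by time point and naming set. Points are cells and black lines are medians, and the single E12-5b cell is left out. Nppa reached 32004 CPM in the N523 cells and 364 CPM in the E12.5 C cells, and the P1 cells spread from 0 to 120233 CPM.

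Nppb was detected in fewer cells than Nppa at each age. It had counts in 27 of the 42 E9.5 cells (64.3%, 48 to 78.5), 12 of the 29 E12.5 cells (41.4%, 23.5 to 61.1) and 20 of the 41 P1 cells (48.8%, 32.9 to 64.9). Thinned to equal depth the shares were 57.1%, 31.0% and 41.5%. By naming set Nppb was found in 5 of 14 cells (C) and 22 of 28 cells (N530) at E9.5. At E12.5 it was found in 6 of 20 (C) and 6 of 8 (N523). Thinned, these shares were 35.7%, 67.9%, 30% and 37.5%. At E9.5 Nppb ran from 0 to 3384 CPM with a median of 60 CPM, at E12.5 from 0 to 599 CPM and at P1 from 0 to 2770 CPM, with a median of 0 at both later ages. The summed level was highest in the E9.5 cells at 412 CPM (408 to 416), against 142 CPM (138 to 145) in the E12.5 cells and 193 CPM (183 to 204) in the P1 cells. By naming set it was 421 CPM in set N530 and 256 CPM in set C at E9.5, and 151 CPM in set N523 and 101 CPM in set C at E12.5. E9.5 cell 4 gave 73.7% of the Nppb counts of its set C, which without it stood at 71.4 CPM. Without the highest cell of each, the other sets stood at 301 (N530), 96.2 (N523) and 75.9 CPM (E12.5, C).

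Compared per transcript length, with the mean over cells of the deposited TPM (transcripts per 1000000), Nppa stood above Nppb at each age, at 3605 and 931 TPM at E9.5, 4219 and 253 TPM at E12.5, and 16642 and 368 TPM at P1. Within E12.5 set C the order was the opposite, with 96 TPM for Nppa and 224 TPM for Nppb. The level of Nppa per length was higher than that of Nppb in 27 of the 42 cells at E9.5, in 12 of 29 at E12.5 and in 27 of 41 at P1. Nppb was the higher in 7, 6 and 11 cells, and in the other 8, 11 and 3 cells both were at 0. Over all cells of each age the receptors lay far below the peptides. In E12.5 set C, though, Npr2 stood at 19.9 TPM against 96 TPM for Nppa, or 44.2 against 43.8 CPM. At E9.5 Npr2 stood at 16.1 TPM, Npr3 at 14.2 TPM and Npr1 at 0.85 TPM. The order of the first pair turned between naming sets, with Npr2 at 20.4 TPM and Npr3 at 0.61 TPM in set C but 13.9 and 21.0 TPM in set N530. Single cells carried much of the N530 means, with up to 198 TPM for Npr2 and 284 TPM for Npr3. The N530 order was not taken without them. Without cell 5, which lacks CM genes, Npr2 in E9.5 set C was 15.46 TPM and Npr3 was 0. At E12.5 Npr2 stood at 14.4 TPM and Npr3 at 0.02 TPM, and at P1 Npr2 stood at 7.37 TPM. The P1 mean of Npr3, 12.9 TPM, came from cell 25, and without that cell it was 0.02 TPM, below the 7.56 TPM of Npr2.

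Ratios between ages were taken from the summed CPM and repeated for every combination of naming sets of 6 or more cells, and their range and standard deviation over these combinations are the spread used here. A gene was called higher or lower where the ratio passed 2-fold, a log2 ratio of 1, and every combination had the same sign. From E9.5 to E12.5 the log2 ratio of Nppa was 1.74, but the 4 combinations ran from -5.94 to 4.47 (SD 4.78), and no direction was called. From E12.5 to P1 it was -0.15, with -0.42 against set N523 and 7.46 against set C (SD 5.58), which again gave no call. From E9.5 to P1 Nppa was called higher, with a log2 ratio of 1.59 (3.02-fold), 1.53 against set N530 and 4.05 against set C (SD 1.78). The 5 highest P1 cells gave 90.2% of the P1 Nppa counts, so the summed P1 level is that of few cells. The ratio was not taken without these 5 cells. The median over cells went the other way, at 477 CPM in the E9.5 cells against 23.6 CPM in the P1 cells, so over all cells the direction depended on whether cells were summed or ranked. In set C, a title prefix that both ages had, the median was 0 at E9.5 and 23.6 CPM at P1, and the E9.5 cells of set N530 had a median of 718 CPM. The labels do not say that a shared prefix means a shared run. The median cell of set C had 415428 counts at E9.5 and 149078 at P1. Of 8928 genes tested, 17.8% were called higher at P1 than at E9.5.

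Nppb was called lower at E12.5 than at E9.5, with a log2 ratio of -1.54 and 4 combinations from -2.05 to -0.76 (SD 0.53). This stood beside 21.9% of 8577 genes that were called lower in the same pair. The call rested on E9.5 cell 4. Without it the log2 ratio of all cells was -1.51, but the combinations with E9.5 set C turned to 0.51 and 1.08, and no direction was called. From E9.5 to P1 Nppb was called lower by the same rule, with a log2 ratio of -1.09 and combinations of -1.12 and -0.41 (SD 0.51), where 34.8% of the genes tested were called lower. Only the combination against set N530 passed 2-fold. Without E9.5 cell 4 the log2 ratio was -1.06, the combination with set C turned to 1.44 and this call also ended. With TMM factors, edgeR's scaling of libraries, the log2 ratio was -0.92 and without cells whose titles end in "no" it was -0.98, both under 2-fold. From E12.5 to P1 the log2 ratio was 0.45 with combinations of 0.35 and 0.93 (SD 0.41), and no call was made. The 3 pairs share their time points, so these ratios are not independent of each other. The median log2 ratio of all genes tested was -0.60 from E9.5 to E12.5, -0.59 from E9.5 to P1 and 0.05 from E12.5 to P1.

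**Figure D2:**
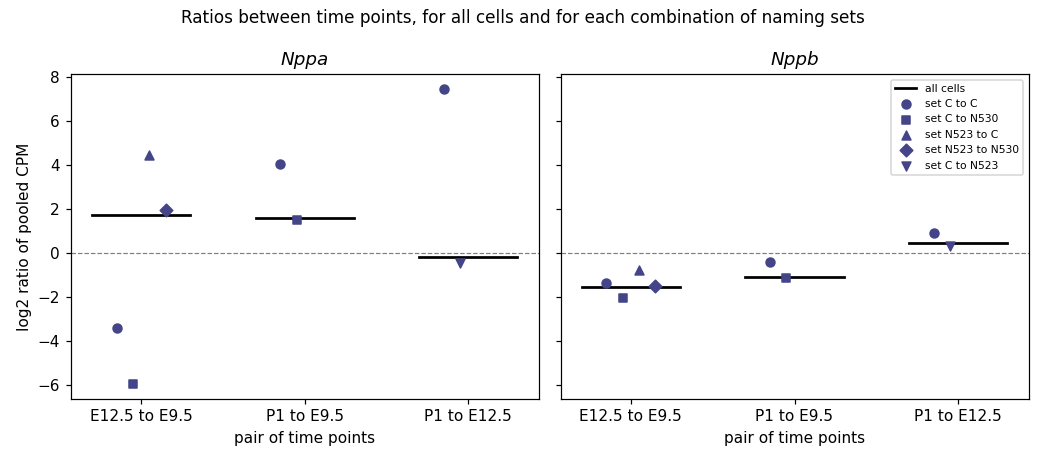
Log2 ratio of the summed CPM of Nppa (left) and Nppb (right) for the 3 pairs of time points. Black lines use all cells and symbols use single naming sets, later age first. The E12.5 to E9.5 ratio of Nppa runs from -5.94 to 4.47 over the sets, and that of Nppb from -2.05 to -0.76.

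Myl2 and Myl7 encode the regulatory myosin light chains of the ventricles and the atria. Myl7 is made throughout the early heart tube and becomes restricted to the atria later. In order of age, the summed level of Myl2 was 735, 2656 and 6344 CPM and that of Myl7 was 12247, 7352 and 2447 CPM. Sln, which encodes sarcolipin, a regulator of the calcium pump made in the atria, had no count at E9.5 and stood at 452 CPM in the E12.5 cells and 570 CPM in the P1 cells. E12.5 cell 25 gave 87.3% of the Sln counts of its age, and without it the level was 63.0 CPM. Without the highest cell Myl7 at E12.5 was 4616 CPM. Cells with cardiomyocyte genes were split by which light chain had the higher CPM. Within 2-fold of that limit lay 11 of the E12.5 cells but only 1 cell at each of the other ages, so that the E12.5 split is a cut through a range.

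At P1, Nppa was carried mainly by cells with Myl7 above Myl2. All 6 such cells had Nppa, from 3908 to 120233 CPM with a median of 46633 CPM, and they gave 91.4% of the Nppa counts of the P1 CMs. In order of Nppa they were cell 9 at 120233 CPM, cell 3 at 101457 CPM, cell 4 at 69474 CPM, cell 32 at 23793 CPM, cell 12 at 16057 CPM and cell 28 at 3908 CPM. The same 6 cells had Sln from 1351 to 6034 CPM, and in the other 35 cells Sln did not pass 74.8 CPM. Nppa was found in 24 of the 34 cells with Myl2 above Myl7, from 0 to 8556 CPM with a median of 14.1 CPM. Within that class 30 cells lay at 281 CPM or less, and 4 cells stood apart at 8556 (cell 20), 7622 (cell 17), 2876 (cell 1) and 2779 CPM (cell 43). Cells 20 and 17 were the ones that reached into the range of the first class. The median total counts were 149378 and 146708, so the classes had similar depth.

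At E12.5 the highest Nppa was not in the cells with the most Myl7. The 2 highest cells, cell 24 at 32004 CPM and cell 29 at 21985 CPM, had Myl2 above Myl7, at 3404 against 1353 CPM and at 3767 against 2263 CPM. Both were in set N523. They also had the highest summed levels of the trabecular genes (Bmp10, Gja5, Irx3, Cited1, Cpne5, Slc6a6 and Sema3a) at that age, 3871 and 3083 CPM, where the median over cells was 61.8 CPM. Only 3 of these 7 genes were found in cell 24 and 4 in cell 29. Their atrial list (Myl7, Myl4, Sln, Nr2f1, Nr2f2, Stard10, Bmp10 and Kcna5) stood at 9340 and 8934 CPM, above the E12.5 median of 6308 CPM. Of this, Myl4 gave 7986 and 6609 CPM. These libraries had many counts in few genes, with 2565 genes found in cell 24 and 3401 in cell 29, where the E12.5 median was 4189. Cell 28, the next at 7725 CPM with 2713 genes found, had Myl7 at 9096 CPM and Myl2 at 6.6 CPM, and cell 25, with the most Myl7 (34330 CPM) and Sln (4286 CPM), had Nppa at 92.6 CPM. Over all 29 cells Nppa was found in 9 of 12 cells with Myl2 above Myl7 (median 65.2 CPM) and in 7 of 17 with Myl7 above Myl2 (median 0). In set C, where the highest cell had 364 CPM, 5 of 8 and 3 of 12 cells had Nppa.

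At E9.5 every CM had Myl7 above Myl2, so the classes could not be compared. Cell 39 was highest in Nppa (22267 CPM) and in both the trabecular genes (3811 CPM) and Myl2 (2695 CPM), and cells 42 and 20 followed at 7549 and 4797 CPM of Nppa. Myl2 was 984 CPM in cell 42 and 4.9 CPM in cell 20, so Nppa was high in cells with high and with low Myl2.

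Correlations over cells depended on the naming set before birth. The Spearman correlation of Nppa with Myl2 was 0.43 at E9.5 (n = 42 cells), 0.13 at E12.5 (n = 29) and -0.35 at P1 (n = 41). By set it was 0.75 (E9.5, C), 0.02 (E9.5, N530), 0.24 (E12.5, C) and -0.10 (E12.5, N523). With Myl7 it was 0.08, -0.15 and 0.26 at the 3 ages, but at E9.5 it was -0.0026 in set C, -0.11 in set N530 and -0.11 without the cells that lack CM genes. On log2(CPM + 1) values the Pearson correlation with Myl7 was 0.43, -0.10 and 0.54, and that with Myl2 was 0.55, 0.20 and -0.55. The Spearman correlation with Sln was 0.62 at P1 and 0.24 at E12.5, where the naming sets gave -0.08 (C) and 0.03 (N523). The cells of a time point are 1 sample and their depth differed between sets, so these values describe the cells and carry no p-value. With Gja5, the connexin gene of trabecular and atrial CMs, the Spearman correlation was 0.53, 0.68 and 0.49 in order of age, and by set it was 0.52 (E9.5, C), 0.35 (E9.5, N530), 0.61 (E12.5, C) and 0.10 (E12.5, N523).

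**Figure D3:**
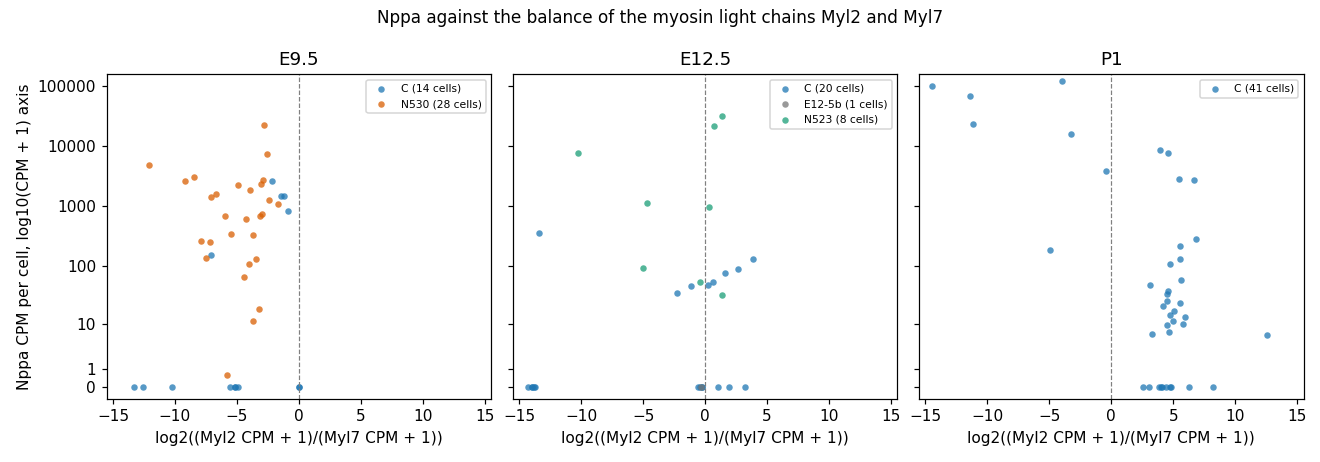
Nppa in each cell, in CPM on a log10(CPM + 1) axis, against log2((Myl2 CPM + 1)/(Myl7 CPM + 1)), with cells coloured by naming set. Left of the dashed line Myl7 is higher. At P1 the 6 CMs on the left lie between 3908 and 120233 CPM, and 30 of the 34 on the right lie at 281 CPM or less.

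Nppa and Nppb were found together more often at E9.5 than each alone. At 1 count or more, 26 of 42 cells had both at E9.5, 7 had Nppa alone, 1 had Nppb alone and 8 had neither. At E12.5 the counts were 10, 6, 2 and 11 of 29 cells, and at P1 they were 13, 18, 7 and 3 of 41 cells. At a minimum of 10 CPM, 23, 8 and 11 cells had both. Of the cells with Nppb, 26 of 27 also had Nppa at E9.5, 10 of 12 at E12.5 and 13 of 20 at P1, differences that were not tested. Of all cells, 78.6%, 55.2% and 75.6% had Nppa. In E9.5 set N530 and E12.5 set N523 every cell had Nppa, so every cell there with Nppb had both. Of these, 22 were in set N530. In E9.5 set C 4 cells had both, 1 had Nppa alone, 1 had Nppb alone and 8 had neither.

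The Spearman correlation of Nppa with Nppb over cells was 0.62 at E9.5, with 0.54 for set C and 0.59 for set N530. It was 0.35 at E12.5, with 0.26 for set C and -0.38 for set N523, and 0.20 at P1. At E9.5 cell 39 was highest in Nppa and second in Nppb (2590 CPM), and cell 4, highest in Nppb at 3384 CPM, had Nppa at 836 CPM. At E12.5 the 2 cells highest in Nppa had Nppb at 0 (cell 24) and 1.2 CPM (cell 29). At P1 the median of Nppb was 138 CPM in the 6 cells with Myl7 above Myl2 and 0 in the 34 with Myl2 above Myl7. The summed levels were 185 and 202 CPM, and the latter was 135 CPM without cell 1, which gave 392 of the 1131 counts of its class. P1 cells 3 and 32, with Nppa at 101457 and 23793 CPM, had no Nppb count. P1 cell 1, highest in Nppb at 2770 CPM, had Nppa at 2876 CPM and Myl2 at 7293 CPM.

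**Figure D4:**
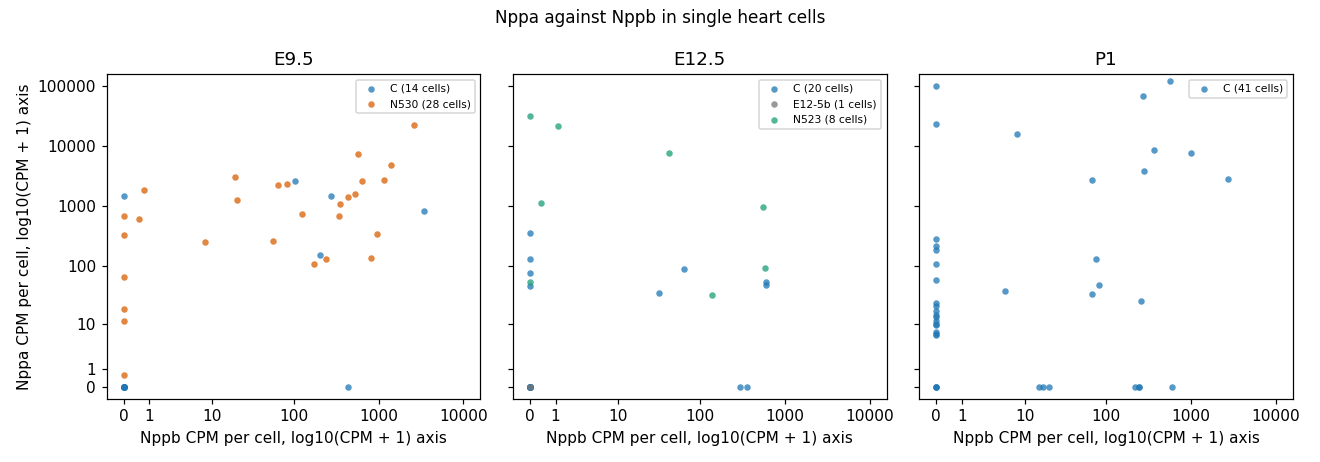
Nppa against Nppb in each cell, both in CPM on log10(CPM + 1) axes, for the 3 time points and coloured by naming set. At E9.5 26 of 42 cells have both genes, and at P1 18 of 41 cells have Nppa alone, along the left edge.

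Genes whose level over cells was most like that of the peptides were sought among 3573 genes found in at least 25% of the cells of the 4 naming sets with 10 or more cells, by the mean Spearman correlation over the sets. For Nppa the highest were Smpx (0.44), which encodes a small muscle protein of the costamere, Usp13 (0.40), Vps25 (0.40), Nppb (0.40) and Speg (0.39), a kinase gene of striated muscle. The lowest were Prickle1 (-0.43), Dpysl2 (-0.35), Prps2 (-0.35), Atad1 (-0.30) and H2afy (-0.29). Myl2 ranked 537 (0.17) and Myl7 ranked 2955 (-0.05). For Nppb the highest were Actc1 (0.49), the cardiac actin gene, Nppa (0.40), Fxyd1 (0.37), Mrpl19 (0.37) and Ghitm (0.37), and the lowest were Serinc3 (-0.33), Golt1b (-0.32), Mea1 (-0.32), Kbtbd2 (-0.31) and Prickle1 (-0.30). Nppa and Nppb each ranked among the 5 genes most like the other. The correlations are modest, rest on 14 to 41 cells per set, and are a description.

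The receptors were found in few cells. Npr1, the receptor of both peptides, had counts in 4 of 42 cells at E9.5, at 42.7, 19.2, 17.9 and 2.4 CPM in cells 40, 39, 2 and 30. It had none in the 29 cells at E12.5, which by a limit of 3 cells or 3 counts of the total allows a share of up to 10.3% and a level of up to 0.06 CPM, and none in the 41 cells at P1, which by the same limit allows 7.32% and 0.44 CPM. All 4 cells with Npr1 had CM genes at 2419 CPM or more, and endothelial genes were at 122 CPM or less. Cell 30, with the lowest CM level of the 4, had fibroblast and mesenchyme genes at 1082 CPM with 5 of 8 found and epicardial genes at 309 CPM with 2 of 6 found. In cell 39 macrophage genes stood at 394 CPM with 2 of 6 found. Smooth muscle genes ran from 817 to 22112 CPM in the 4 cells. In the other 38 E9.5 cells their median was 4209 CPM, and 33 of the 38 reached 1000 CPM. Whether other cell types have a part in the Npr1 counts was not tested. Since no P1 cell had an Npr1 count, its absence from the P1 cells highest in Nppa tells nothing of a link to Nppa. Of the 4 cells with Npr1, 3 were in set N530, and after thinning 2 of the 42 E9.5 cells had it. The median total was 3488540 counts in the 4 cells and 149078 in the P1 cells.

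Npr2 had counts in 6 of the 42 E9.5 cells (14.3%, 5.4 to 28.5), 7 of the 29 E12.5 cells (24.1%, 10.3 to 43.5) and 3 of the 41 P1 cells (7.3%, 1.5 to 19.9). In these cells it ran from 0.3 to 397 CPM, from 2.7 to 456 CPM and from 50.8 to 307 CPM. The summed level was 29.7, 11.9 and 18.0 CPM in order of age. At each age 1 cell gave much of it, and without the highest cell the levels were 10.02, 6.71 and 6.85 CPM. At E12.5 set C stood at 44.2 CPM and set N523 at 5.69 CPM, or 12.7 and 0.50 CPM without the highest cell of each, and no pair of ages was called. Of the 6 E9.5 cells with Npr2, 5 had endothelial counts and 2 reached 1000 CPM of endothelial genes, a level that none of the other 36 cells reached. Of those 2, cell 5 lacked CM genes (137 CPM) and had 7 of 8 endothelial genes, at 2275 CPM. Cell 34 had 1 of the 8, at 1246 CPM, with CM genes at 79604 CPM. Cells 6, 32 and 33 had 1 each, at 84.4 CPM or less. At E12.5 the median of smooth muscle genes was 5575 CPM in the 7 cells with Npr2 and 1777 CPM in the other 22. In both groups the median cell had 3 of the 6 genes, and Myh11 and Rgs5 had no count at that age. All 7 cells had CM genes at 11126 CPM or more. The part of other cell types in the Npr2 counts was not tested. Nppc, which encodes the ligand of Npr2, had no count in any cell.

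Npr3, the clearance receptor, had counts in 11 of the 42 E9.5 cells (26.2%, 13.9 to 42), of which 10 were in set N530. Cell 31 was highest at 735 CPM, followed by cell 34 at 324 CPM, cell 36 at 246 CPM, cell 20 at 180 CPM, cell 15 at 110 CPM and cell 29 at 66.5 CPM. The other 5 cells lay at 26.3 CPM or less. These 6 highest cells had CM genes between 66015 and 111590 CPM, and 4 of them had no endothelial count. Of 8 endothelial and endocardial genes (Pecam1, Cdh5, Kdr, Tek, Emcn, Plvap, Nfatc1 and Tie1), cell 31 had 2, at 115 CPM in all, and cell 34 had 1, at 1246 CPM. Because 10 of the 11 cells are in set N530, with a median total of 3151950 counts, the depth of that set moved with the finding of Npr3. After thinning 7 of 42 cells had Npr3.

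At E12.5 Npr3 had 1 count, in cell 1, over all 29 cells, which is 0.02 CPM with an upper limit of 0.11 CPM. At P1 it was found in cell 25 at 1658 CPM and in cell 48 at 4.0 CPM. Cell 25 had CM genes at 321 CPM and endothelial and endocardial genes at 8023 CPM, with 6 of the 8 found, so the P1 cell with the most Npr3 did not carry the CM profile that its GFP label implies. With cell 25 left out, the P1 level fell from 50.1 to 0.15 CPM. E9.5 cell 5 also lacked CM genes, with endothelial genes at 2275 CPM and 7 of 8 found, and had Npr3 at 26.3 CPM and Npr2 at 137 CPM. From E9.5 to E12.5 the level went from 55.7 to 0.02 CPM and Npr3 was called lower, beside 21.9% of the genes tested. Without cell 31 the E9.5 level was 30.4 CPM. The 9 Npr3 counts of E9.5 set C were all from cell 5, so without the cells that lack CM genes that set had no count to compare. Between E12.5 and P1 it was called higher, a call that rests on cell 25, since the other P1 cells together gave 0.15 CPM.

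**Figure D5:**
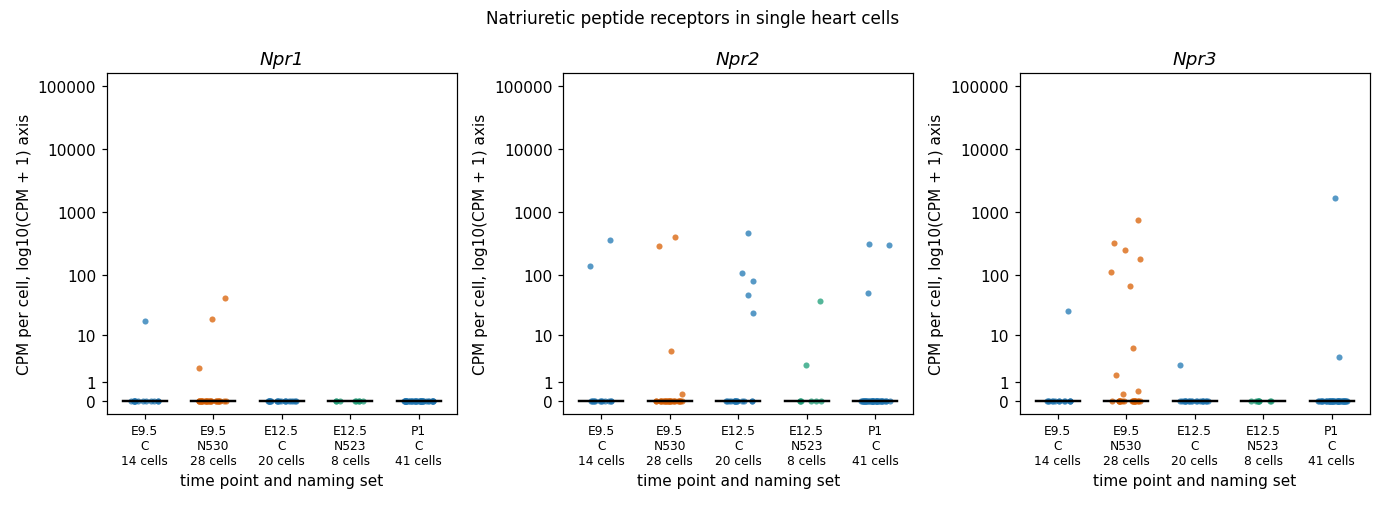
CPM of Npr1, Npr2 and Npr3 in each cell on a log10(CPM + 1) axis, by time point and naming set, with black lines at the medians, all 0. Npr1 had no count at E12.5 and P1. Npr3 in N530 cells reaches 735 CPM, and the single high P1 point, at 1658 CPM, is cell 25, which lacks CM genes.

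Proteins that process or remove the peptides were followed by a list of 7 genes. Corin, which encodes the protease that activates atrial natriuretic peptide, stood at 5.2, 3.0 and 131 CPM in order of age and was found in 24 of the 41 P1 cells. It was called higher at P1 than at E9.5, with a log2 ratio of 4.65, and than at E12.5, with a log2 ratio of 5.47. The Spearman correlation of Nppa with Corin over cells was -0.02, 0.05 and 0.54 in order of age, with -0.37 (C) and 0.28 (N530) in the E9.5 sets. Mme encodes neprilysin, which cleaves the peptides, and stood at 16.1, 43.9 and 0 CPM, with no count in 41 P1 cells. Furin, a convertase of the B-type precursor, was called lower at P1 than at E9.5 (log2 ratio -1.45) and than at E12.5. Ide, a degrading enzyme, was called lower at E12.5 than at E9.5 and higher at P1 than at E12.5 (log2 ratio 2.35). By pair, of the genes tested, 0 of 3 were called higher and 1 lower from E9.5 to E12.5, 1 of 4 higher and 2 lower from E9.5 to P1, and 2 of 4 higher and 2 lower from E12.5 to P1. Of all genes tested, 9.19% were called higher and 21.9% lower from E9.5 to E12.5, 17.8% and 34.8% from E9.5 to P1, and 24.8% and 23.4% of 8051 from E12.5 to P1.

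Genes of cyclic GMP signalling, including the cyclase that makes it, were a list of 15. From E9.5 to E12.5 1 of the 8 tested was called higher and 4 lower, from E9.5 to P1 3 of 11 were called higher and 5 lower, and from E12.5 to P1 6 of 9 were called higher and 3 lower. The shares over all genes tested were 9.19% and 21.9%, 17.8% and 34.8%, and 24.8% and 23.4%. Prkg1, the cyclic GMP dependent kinase, stood at 118, 23.2 and 3.2 CPM and was called lower in every pair, and 34 of the 42 E9.5 cells but 2 of the 41 P1 cells had it. Gucy1a3, a subunit of the soluble guanylyl cyclase, stood at 196, 119 and 28.4 CPM, and Gucy1b3, its partner, at 23.5, 178 and 16.4 CPM. Pde3a, a phosphodiesterase that cyclic GMP inhibits, was called higher at P1 than at both earlier ages, at 1.0, 1.3 and 16.1 CPM. Rgs2, a target of the kinase, stood at 5.5, 2.6 and 56.9 CPM. Pde2a was called higher at P1 but was found in only 2 of 41 cells there. The median log2 ratio of the tested list genes was -1.88, -0.52 and 1.32 in the 3 pairs.

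Among 20 transcription factor genes linked to the peptide genes, 0 of 18 were called higher and 3 lower from E9.5 to E12.5, 1 of 18 higher and 7 lower from E9.5 to P1, and 3 of 15 higher and 3 lower from E12.5 to P1. Over all genes 9.19% were called higher and 21.9% lower in the first pair, 17.8% and 34.8% in the second, and 24.8% and 23.4% in the last. Their median log2 ratios were -0.74, -0.45 and 0.04. Nkx2-5, a cardiac homeobox factor, was called lower at both later ages than at E9.5 and stood at 18.7, 4.9 and 6.7 CPM. Gata4 stood at 122, 38.8 and 92.4 CPM and Gata6 at 133, 110 and 234 CPM, both called higher at P1 than at E12.5. Mef2c stood at 645, 380 and 131 CPM and Mef2a at 61.5, 13.0 and 137 CPM, the first called lower and the second higher at P1. Tbx3, a repressor of chamber genes including Nppa, had 31.6 and 13.7 CPM and no count in the P1 cells.

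Of the genes beside Nppa and Nppb, 3 had enough counts to be tested in each pair. Plod1, a collagen lysyl hydroxylase gene, stood at 87.1, 8.3 and 46.9 CPM and was called lower at E12.5 than at E9.5 and higher at P1 than at E12.5. Agtrap stood at 66.5, 37.1 and 18.0 CPM and was called lower at P1 than at E9.5, and 2510039O18Rik stood at 24.3, 0.4 and 10.4 CPM and was called higher at P1 than at E12.5. The shares over all genes tested were 21.9% lower from E9.5 to E12.5, 34.8% lower from E9.5 to P1 and 24.8% higher from E12.5 to P1. Clcn6, the gene next to Nppa, stood at 8.7, 0 and 2.8 CPM. At every age Nppa and Nppb stood above each of these neighbours in CPM.

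Of the 7 trabecular genes 6 were tested, of which 0 were called higher and 2 lower from E9.5 to E12.5, 0 higher and 4 lower from E9.5 to P1, and 2 higher and 1 lower from E12.5 to P1, against 9.19% and 21.9%, 17.8% and 34.8%, and 24.8% and 23.4% of all genes tested. Their summed level was 663, 1253 and 231 CPM in order of age, and at E12.5 it was 85.7 CPM in set C and 1498 CPM in set N523. Cited1, the trabecular gene with the most counts, stood at 252, 1095 and 55.9 CPM and Gja5 at 41, 57.9 and 62.0 CPM. Over cells, the Spearman correlation of Nppa with the summed trabecular genes was 0.45, 0.53 and 0.33 in order of age, and by set it was 0.59 (E9.5, C), 0.31 (E9.5, N530), 0.08 (E12.5, C) and 0.64 (E12.5, N523). In the same order of age it was 0.62, 0.15 and -0.38 with the ventricular list, 0.18, 0.06 and 0.35 with the atrial list, -0.10, -0.45 and 0.08 with the compact layer list and 0.37, -0.31 and -0.20 with the smooth muscle list. These values differed between sets, with 0.77 (E9.5, C), 0.23 (E9.5, N530), 0.31 (E12.5, C) and -0.40 (E12.5, N523) for the ventricular list, -0.40 (E12.5, C) and 0.43 (E12.5, N523) for the atrial list and 0.07 (E12.5, C) and -0.49 (E12.5, N523) for the compact layer list.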

How the data were processed

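Read counts and TPM per gene were analysed in single αMHC-GFP+ cells. OLego was the authors' aligner and featureCounts their counting tool, and the deposited read counts per gene symbol were used as they stand. The authors computed the deposited TPM from these counts, and every cell sums to 1000000 on a linear scale. The submitters' processing notes name builds GRCm38 and mm10, and the annotation is not given in the sources used here. A removal of cells with few mapped reads is described in the paper, and whether it came before the deposit is not given in the sources used here.

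A cell was kept if at least 2000 genes had a count. A level is the summed counts over the summed totals, in CPM. Genes at 10 CPM or more in either time point and found in 3 or more cells were tested for a call, and a summed count of 0 was set to 3 counts. Shares carry exact (Clopper-Pearson) and levels exact Poisson 95% intervals. Per-length levels are means of the deposited TPM. No test across cells was made, since each time point is 1 sample. Named genes were the members, chamber genes, called genes of each list or otherwise its 3 genes with the most counts, a selection of which is given, and the genes most and least like each peptide gene. Clcn6, Gja5 and Nppc were named after their values were seen. The members and lists were chosen with earlier results of these data known. Doublets were not called. TMM factors came from edgeR 4.0.16. Python 3.11.15, pandas 2.3.3 and scipy 1.17.1 were used, and the calls were tested on simulated data. Alternatives were other gene minimums (1000 and 3000), means and medians of cell CPM, TMM, TPM, set C alone, leaving out single cells (E9.5 cell 4 was chosen after seeing the data) or kinds of cells, thinning, other minimums for a gene to be found and another pseudocount.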

Additional observations from a re-analysis of the deposited data

Results flagged for a closer look

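The 11 P1 cells with fewer than 2000 detected genes were not part of any comparison, and Nppa was present in them. They held 1091 to 1985 genes and 714929 counts in all, of which 25 were Nppa, or 34.97 CPM, found in 5 of the 11 cells. This was marked because it lies above 4.2 CPM, the level that 3 counts over these cells allow for a count of 0. Nppb had 2 counts there, below that limit, and Npr1, Npr2 and Npr3 had none.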

How the results depend on the processing

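Of 69 alternative ratios of Nppa and Nppb between ages, 61 moved by less than the SD between naming sets, 7 moved further and 1 called ratio reversed. In 9 the sign was not that of the reported ratio, all of them for Nppa, where that SD was large. The E9.5 to P1 ratio of Nppa (1.59) became -4.34 with medians of cell CPM, a log2 ratio of cell medians, and 4.05 with set C cells only. The E9.5 to E12.5 ratio (1.74) became -3.41 with set C only and -3.75 with medians of cell CPM, and the E12.5 to P1 ratio (-0.15) became 7.46 with set C only, 0.46 with 3000 genes, 1.97 with means of cell CPM, 1.98 with means of TPM, 0.18 without the highest cells and 1.93 after thinning. For Nppb, set C alone gave -0.41 from E9.5 to P1 and 0.93 from E12.5 to P1, and leaving out the highest cell of each age gave 0.0043 for the latter. Leaving out E9.5 cell 4, chosen after seeing the data, gave -1.51 from E9.5 to E12.5 and -1.06 from E9.5 to P1 and ended both calls of Nppb. No median ratio of Nppb could be had, since a median was 0 in each pair.

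Among 30 alternative Spearman correlations 9 moved by more than the SD between naming sets, or by more than 0.1 where there was 1 set. Nppa with Myl7 at E9.5 (0.08) became -0.11 without the cells that lack cardiomyocyte genes, -0.11 in set N530 and -0.0026 in set C, and at E12.5 (-0.15) became -0.37 in set C. Nppa with Nppb at E9.5 (0.62) became 0.55 after thinning, 0.57 without the cells that lack cardiomyocyte genes, 0.59 in set N530 and 0.54 in set C. At E12.5 (0.35) it became -0.38 in set N523. Of the shares of cells, 82 of 90 alternatives stayed within their interval.

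Calls over all genes fell with stricter rules. At a log2 ratio of 2, 401 genes were higher at E12.5 than at E9.5, 886 were higher and 1931 lower at P1 than at E9.5, and 1146 were lower at P1 than at E12.5. At 50 CPM, 920 were lower at E12.5 than at E9.5, 775 were higher and 1642 lower at P1 than at E9.5, and 774 were higher and 1130 lower at P1 than at E12.5. The causes were not tested. Median totals were lowest at P1, and after thinning the shares of P1 cells with Npr2 and Npr3 stayed at 7.32% and 4.88%. At E9.5 thinning lowered the shares from 9.52% to 4.76% (Npr1), from 14.3% to 9.52% (Npr2) and from 26.2% to 16.7% (Npr3). At E12.5 it lowered those of Npr2 from 24.1% to 20.7% and of Npr3 from 3.45% to 0. No paired analysis was possible because the labels carry no number that pairs cells across ages and no test was made.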
